A study of Homo sapiens with 6 samples.

Results

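A set of 9 genes that move glutamate across membranes or interconvert glutamate and glutamine were followed in U251, an established human glioma line: the plasma membrane carriers SLC1A1, SLC1A2, SLC1A3 and SLC1A5, the vesicular transporters SLC17A6 and SLC17A7, and the enzymes GLUL, GLUD1 and GOT1. They were chosen by symbol, for their function, and 8 of the 9 are among the 16832 symbols listed in every file; SLC17A6 was not analysed here. In the 3 libraries labelled SLCDS the cells had been given that small-molecule cocktail for 18 days. The 3 control libraries are labelled PBS, with no time in culture stated, and all 6 carry the genotype label WT. By its title the series concerns neuronal-like cells made from U251, and the question here is how the glutamate genes of treated and untreated U251 cells compare. Each value is an FPKM, a count of sequenced fragments scaled to transcript length and to library depth, so levels of different genes can be set side by side. Nothing in the labels says that replicates came from separate cultures, and p-values therefore measure the spread between these samples, which may be technical.

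In the brain, glutamate released by neurons is cleared by carriers of the SLC1 family, chiefly on astrocytes. Glutamine synthetase then turns it into glutamine, which neurons take up, convert back to glutamate and load into synaptic vesicles through the SLC17 transporters. Glioma cells keep parts of this astrocyte machinery, and proliferating tumour cells also import glutamine as a source of carbon and nitrogen.

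The 6 libraries differ little in depth, with 15914156 to 16816338 fragments recovered from the steps between FPKM values. Control replicate 3 stood apart: across the tested genes it correlated with control replicates 1 and 2 at a Pearson r of 0.9765 and 0.9767, where those replicates reached 0.9969 with each other and pairs of SLCDS libraries 0.9966 to 0.997. Compared with the other controls it read higher for short transcripts (median log2 difference 0.361 for genes of up to 2469 nucleotides) and lower for long ones (-0.312 for genes over 6356 nucleotides). Results for the glutamate genes are therefore given with and without it. The label glioma was set against markers of neural cell types: GFAP lay between 127 and 354 FPKM and SOX9 between 103 and 129 FPKM in all libraries, while the mature astrocyte genes AQP4 and ALDH1L1 stayed under 0.25 FPKM. RBFOX3, a marker of mature neurons, reached at most 0.0206 FPKM in any library.

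SLCDS and control FPKM ranges were separate for all 8 listed genes, a state found in 25.2% of the listed symbols and 29.1% of those tested. The vesicular transporter gene SLC17A7, the carrier genes SLC1A1 and SLC1A5 and the glutamine synthetase gene GLUL rose in SLCDS, by 1.31 to 4.03 times as a ratio of mean FPKM. That is 4 of 7 genes tested, none of which fell (2 were lower at an unadjusted p under 0.05), by limma on log2(FPKM + 1) with adjustment over all 11506 genes tested. In that fit 6.09% of genes were called, 4.28% higher and 1.82% lower. Without control replicate 3 all 7 were called, 5 higher and the carrier gene SLC1A3 and the dehydrogenase gene GLUD1 lower, where 27.8% of genes were called (16.1% higher and 11.7% lower). SLC1A2, the main carrier of mature astrocytes, lay under the limit of 1 FPKM in 3 libraries that a gene needed to be tested, and SLC17A7 met it through the SLCDS libraries alone. Both are therefore also given from a fit with no such limit.

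**Figure D1:**
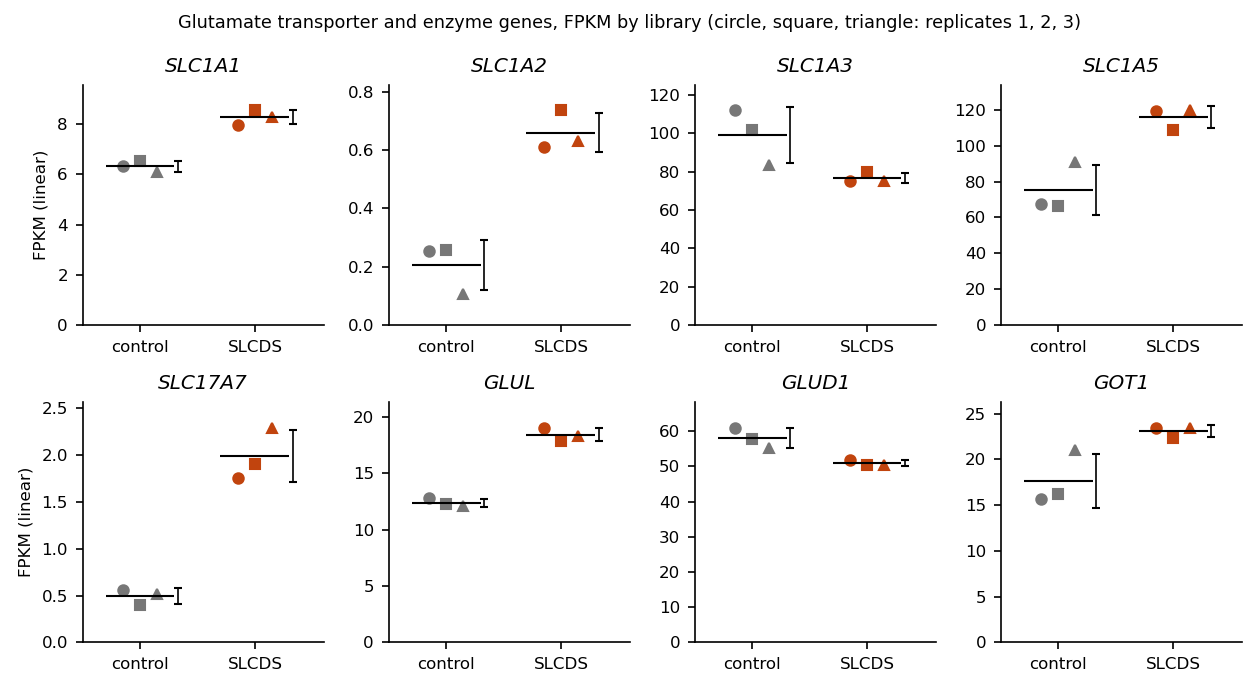
FPKM (linear, each axis from 0) of the 8 listed genes in each library; points are libraries, the line is the group mean and the bar its SD (n = 3). The SLCDS points lie above every control point for SLC1A1, SLC1A2, SLC1A5, SLC17A7, GLUL and GOT1 and below every control point for SLC1A3 and GLUD1.

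SLC17A7 encodes a vesicular glutamate transporter of excitatory neurons. It stood at 1.75, 1.90 and 2.29 FPKM in SLCDS replicates 1 to 3 and at 0.562, 0.396 and 0.520 FPKM in control. Every SLCDS library was above every control, and control replicate 3 lay between the other controls. These levels rest on 87, 93 and 116 fragments in SLCDS and 27, 19 and 26 in control. The lowest SLCDS value, 1.75 FPKM, has an exact 95% Poisson interval of 1.40 to 2.16 FPKM and the highest control value, 0.562 FPKM, one of 0.370 to 0.818 FPKM; such intervals cover counting error only. The mean rose from 0.493 ± 0.0862 (SD, n = 3) to 1.98 ± 0.278 FPKM, with a log2 difference of 1.00 (SE 0.09, limma, adjusted p = 0.00155) on the log2(FPKM + 1) scale, on which folds of weakly expressed genes come out too small. With no limit on low values the limma adjusted p was 0.00294. The recovered fragments, weighted with voom, were fitted for all 8 genes, of which 5 were higher and none lower (2 lower at an unadjusted p under 0.05), beside 6.95% of genes called (5.14% higher, 1.81% lower). In that fit the SLC17A7 log2 fold change was 1.99 (SE 0.22, limma, adjusted p = 0.00264).

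Markers of neurons were read beside SLC17A7. Of 6 listed markers 4 were tested and none passed by limma (1 higher and 1 lower at an unadjusted p under 0.05, with no call by voom either). The summed level of all 6 listed markers, most of it TUBB3 and MAP2, was 51.2 to 52.4 FPKM in SLCDS and 62.9 to 63.9 FPKM in control. Control replicate 3 had the highest TUBB3 (45.3 FPKM) and the lowest MAP2 (13.2 FPKM) of all libraries, and MAP2 overlapped between the groups. SYP and SNAP25 were higher in every SLCDS library than in any control. STMN2, a growth-associated gene of neurons, had 1, 3 and 3 fragments in SLCDS and 0 in each control. Without control replicate 3 SYP and SNAP25 were higher and TUBB3 and MAP2 lower by limma, where 27.8% of genes were called (16.1% higher and 11.7% lower). SYP met the limit of 1 FPKM in 3 libraries through the SLCDS libraries alone. With no limit on low values and without control replicate 3, 15.7% of all symbols were called. There SYP (limma, adjusted p = 0.0275), TUBB3 and MAP2 kept the call and SNAP25 did not (0.0985). In such bulk RNA, more cells that carry a transcript and more transcript per cell cannot be told apart.

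Promoter sequences are shown for the 3 largest increases among the tested genes, those of SLC17A7, SLC1A5 and GLUL. Each line holds the 250 bases before the first start that the RefSeq table lists for the gene (build GRCh38.p14), written 5′ to 3′ on the gene's strand. Capitals mark GC boxes (GGGCGG) and CCAAT boxes (CCAAT), on either strand. The windows are chr19:49441528-49441777 (minus strand) for SLC17A7, chr19:46788595-46788844 (minus strand) for SLC1A5 and chr1:182391791-182392040 (minus strand) for GLUL.
SLC17A7: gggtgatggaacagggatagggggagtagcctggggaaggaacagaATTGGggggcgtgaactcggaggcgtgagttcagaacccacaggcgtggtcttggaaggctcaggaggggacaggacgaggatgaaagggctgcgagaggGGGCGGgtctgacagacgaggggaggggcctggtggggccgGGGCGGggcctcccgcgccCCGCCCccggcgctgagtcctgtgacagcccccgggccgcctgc
SLC1A5: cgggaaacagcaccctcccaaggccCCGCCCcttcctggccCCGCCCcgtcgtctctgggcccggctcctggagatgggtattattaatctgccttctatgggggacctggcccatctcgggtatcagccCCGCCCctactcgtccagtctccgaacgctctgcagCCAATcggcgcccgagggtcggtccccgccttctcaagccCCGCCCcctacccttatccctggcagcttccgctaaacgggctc
GLUL: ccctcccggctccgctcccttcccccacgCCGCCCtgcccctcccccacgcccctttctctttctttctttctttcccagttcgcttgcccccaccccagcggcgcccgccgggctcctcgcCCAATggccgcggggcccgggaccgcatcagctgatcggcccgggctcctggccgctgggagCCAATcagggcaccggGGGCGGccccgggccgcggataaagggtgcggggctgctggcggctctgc
GC boxes numbered 3, 4 and 2 and CCAAT boxes 1, 1 and 2 in SLC17A7, SLC1A5 and GLUL. A GC box is found in 42.6% and a CCAAT box in 32.0% of the 35116 promoters listed, so these letters are common. None of the 3 windows holds the full cAMP response element TGACGTCA (1.65% of promoters) or the TATA box letters TATAAA (10.7%). The matches describe the letters of these windows and were not tied to any measurement of binding.

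Among the carriers of acidic amino acids, SLC1A3, the carrier of radial glia and astrocytes, was by far the most abundant. It stood at 75.3, 79.8 and 75.1 FPKM in SLCDS and at 112, 102 and 83.5 FPKM in control. The groups did not overlap, but control replicate 3 came within a few FPKM of SLCDS replicate 2. SLC1A3 did not pass over all libraries (99.1 ± 14.4 FPKM in control and 76.7 ± 2.66 FPKM in SLCDS, log2 difference -0.36 with an SE of 0.11, limma adjusted p = 0.144). Without control replicate 3 it was lower (log2 difference -0.47 with an SE of 0.05, limma adjusted p = 8.91e-05), and with each library's trend with transcript length removed the limma adjusted p was 0.0501. That correction left 5 of the 7 genes higher and 1 lower, with 13.3% of all genes called (7.07% higher, 6.22% lower). Astrocyte markers were split beside it: of 4 tested, GFAP and GJA1 fell by limma and SOX9 and S100B did not pass, S100B standing at 17.8 ± 2.45 FPKM in SLCDS against 14.0 ± 2.40 FPKM in control (log2 difference 0.33, limma adjusted p = 0.286). Without control replicate 3 SOX9 was also lower (limma adjusted p = 0.00118) and S100B higher (log2 difference 0.44, limma adjusted p = 0.0102). The summed level of all 6 listed markers, most of it GFAP, was 312 to 325 FPKM in SLCDS and 568 to 624 FPKM in control. Their part in the lower SLC1A3 level was not tested.

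SLC1A2, which in adult brain does most of the clearance of synaptic glutamate, was the least abundant of the 8 genes and went the other way. Its FPKM was 0.612, 0.737 and 0.631 in SLCDS against 0.256, 0.256 and 0.107 in control, and no library of either group reached the level of the other. The transcript is long, so these small values rest on 136, 161 and 143 fragments in SLCDS and on 55, 55 and 24 in control. The highest control intervals reach 0.333 FPKM and the lowest SLCDS interval starts at 0.514 FPKM (exact Poisson, 95%). With no limit on low values SLC1A2 was higher in SLCDS (0.660 ± 0.0670 against 0.206 ± 0.0859 FPKM, log2 difference 0.46 with an SE of 0.06, limma adjusted p = 0.0113), in a fit that called 4 of the 8 genes (SLC1A1, SLC1A2, SLC17A7 and GLUL) and 4.95% of all genes, 3.71% higher and 1.24% lower. On recovered fragments the log2 fold change was 1.77 (SE 0.30; limma with voom, adjusted p = 0.0137), and without control replicate 3 the unfiltered limma adjusted p was 0.0048, with all 8 genes and 15.7% of all symbols called. Leaving out 1 SLCDS library, whichever it was, moved it just past the threshold (limma, adjusted p = 0.0503 to 0.0532).

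SLC1A1, a carrier of glutamate and cysteine that is mainly neuronal in brain, stood at 7.98, 8.54 and 8.28 FPKM in SLCDS and 6.33, 6.54 and 6.07 FPKM in control. The 3 libraries of each group lay close together, and control replicate 3 lay close to the other controls. The difference was small (6.32 ± 0.232 to 8.27 ± 0.285 FPKM; log2 difference 0.34 with an SE of 0.07, limma adjusted p = 0.0353). The call was lost when any library other than control replicate 3 was left out (limma, adjusted p = 0.0858 to 0.215) and kept without that one (limma, adjusted p = 0.00327). It was also lost with libraries scaled to the same FPKM sum (limma, adjusted p = 0.126). Summed over SLC1A1, SLC1A2 and SLC1A3, carrier transcript was 83.9, 89.1 and 84.0 FPKM in SLCDS and 119, 109 and 89.7 FPKM in control, so the increases of both rarer carriers were small beside the level of SLC1A3.

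SLC1A5 exchanges neutral amino acids and is a main route of glutamine into tumour cells. It was the most abundant of the 8 genes in SLCDS, at 119, 109 and 120 FPKM, against 67.8, 66.3 and 91.1 FPKM in control. Control replicate 3 was the highest control and still under every SLCDS library. The mean rose from 75.0 ± 13.9 to 116 ± 6.22 FPKM (log2 difference 0.64 with an SE of 0.13, limma adjusted p = 0.0332), and without control replicate 3 the log2 fold change was 0.78 (SE 0.05, limma, adjusted p = 2.83e-06). Like SLC1A1, it lost the call when any other library was left out (limma, adjusted p = 0.106 to 0.188), and also narrowly with no limit on low values (0.0514).

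SLC1A5 was the higher of both abundant carriers in every SLCDS library and the lower in control replicates 1 and 2, but not in control replicate 3. SLC1A5 stood at 1.59, 1.36 and 1.59 times the SLC1A3 level in SLCDS, and at 0.605, 0.651 and 1.09 times it in control. Such a ratio within a library does not depend on how that library was scaled for depth. A trend with transcript length cancels only where both genes are alike in length. The FPKM steps imply 8458 nucleotides for GLUL and 3950 for GLUD1, and 11278 for SLC38A1 and 3155 for SLC38A3. The ratios of SLC1A5 to SLC1A3 and those below were chosen after the values were seen and carry no test. In control replicate 3 SLC1A5 and SLC1A3 were nearly level, and its ratio still lay under that of every SLCDS library.

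**Figure D2:**
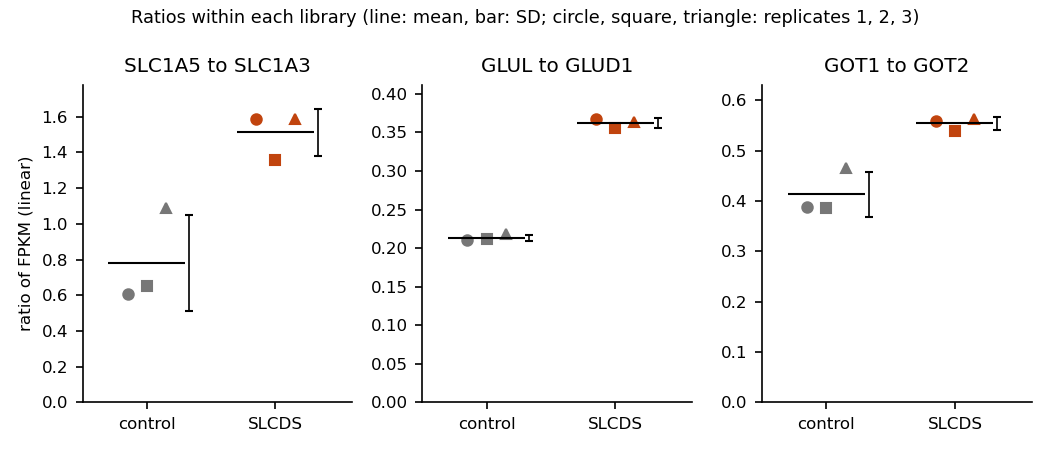
Ratio of FPKM within each library (linear axes from 0) for SLC1A5 to SLC1A3, GLUL to GLUD1 and GOT1 to GOT2; points are libraries, the line is the mean and the bar the SD (n = 3). All 3 ratios are higher in every SLCDS library than in any control, with the tightest groups for GLUL to GLUD1 (0.362 ± 0.00579 and 0.213 ± 0.00421).

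GLUL encodes glutamine synthetase, which joins ammonia to glutamate and is the astrocyte enzyme that detoxifies both. It stood at 19.1, 17.9 and 18.3 FPKM in SLCDS and 12.8, 12.3 and 12.1 FPKM in control. All 6 values fell into 2 tight groups, and control replicate 3 differed little from the other controls. The mean rose from 12.4 ± 0.387 to 18.4 ± 0.586 FPKM (log2 difference 0.54 with an SE of 0.07, limma adjusted p = 0.00419). Sample weights called all 7 tested genes and 28.5% of all genes, and a block for replicate number 3 of the 7 and 3.95%. The GLUL call was kept in 23 of 24 other settings, the exception being the fit without SLCDS replicate 1 (limma, adjusted p = 0.0515).

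GLUD1, the mitochondrial dehydrogenase that converts glutamate to alpha-ketoglutarate, leaned lower. Its values were 51.8, 50.2 and 50.5 FPKM in SLCDS and 61.0, 57.8 and 55.3 FPKM in control, without overlap. Over all libraries it did not pass (58.0 ± 2.85 and 50.9 ± 0.838 FPKM in control and SLCDS; log2 difference -0.19 with an SE of 0.07, limma adjusted p = 0.199). It was lower without control replicate 3 (limma, adjusted p = 0.00357) and with the length trend removed (0.0387). GLUD2, a near-identical intronless copy, was listed at a mean of 0.119 FPKM in SLCDS and 0.122 FPKM in control, and fragments may be shared between the copies. Within a library GLUL was 0.368, 0.356 and 0.363 of the GLUD1 level in SLCDS and 0.210, 0.212 and 0.218 of it in control. The ratio was nearly the same in all 3 controls, control replicate 3 included, and higher in every SLCDS library.

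GOT1, the cytosolic aspartate aminotransferase of the malate-aspartate shuttle, stood at 23.5, 22.3 and 23.5 FPKM in SLCDS and 15.7, 16.2 and 21.0 FPKM in control. Control replicate 3 lay far above the other controls and close to SLCDS. It did not pass over all libraries (17.6 ± 2.96 and 23.1 ± 0.647 FPKM in control and SLCDS; log2 difference 0.38 with an SE of 0.11, limma adjusted p = 0.118), and was higher without control replicate 3 (log2 difference 0.51 with an SE of 0.05, limma adjusted p = 3.8e-05) and with the length trend removed (log2 fold change 0.41; limma, adjusted p = 0.00259). GOT1 was likewise called with libraries scaled to the same FPKM sum (limma, adjusted p = 0.022). Its transcript length as implied by the FPKM steps, about 2020 nucleotides, is the shortest of the 8. Its longest transcript in GENCODE 29, a set of human gene models, has 2923 nucleotides, and there that of SLC1A5 is shorter (2882). GOT2, the mitochondrial partner of the shuttle, stood at 41.6 ± 0.260 FPKM in SLCDS against 42.5 ± 2.47 FPKM in control (log2 difference -0.03 with an SE of 0.07, limma adjusted p = 0.874).

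**Figure D3:**
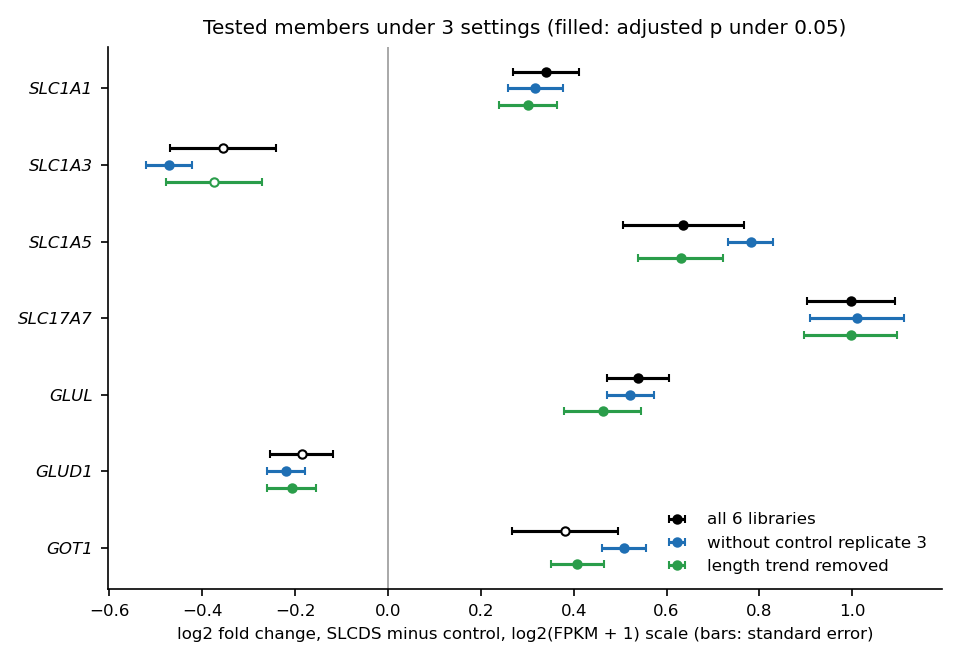
Log2 fold change (SLCDS minus control, log2(FPKM + 1) scale) with its standard error for the 7 tested genes, over all 6 libraries, without control replicate 3 and with the length trend of each library removed; filled points have an adjusted p under 0.05. Each gene keeps its direction across these fits, and SLC1A3, GLUD1 and GOT1 are open over all libraries and filled without control replicate 3.

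The distance of control replicate 3 from the other controls differed between the genes. Its log2(FPKM + 1) value exceeded their mean by 0.437 for SLC1A5 and 0.381 for GOT1, and lay below it for SLC1A3 (-0.351) and SLC1A2 (-0.182). For SLC17A7 (0.042), GLUL (-0.050), SLC1A1 (-0.072) and GLUD1 (-0.100) it was close to them. The part of transcript length in these distances was not tested gene by gene.

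Among 11 tested genes of other glutamate and glutamine transporters, 1 rose and 1 fell by limma, beside 6.09% of all genes called (4.28% higher and 1.82% lower). At an unadjusted p under 0.05, 4 of the 11 were higher and 1 lower. Their median log2 fold change was 0.218, beside 0.0 over all genes. Leaving out control replicate 3, the median was 0.112, and 27.8% of all genes were called (16.1% higher and 11.7% lower). There 4 rose by limma (SLC38A1, SLC38A2, SLC7A5 and SLC3A2, the last 3 named after their values were seen) and 1 fell (SLC38A3). Over all 6 libraries with no limit on low values the median over 13 genes was 0.039. SLC38A1, a sodium-coupled importer of glutamine found in neurons and tumour cells, stood at 16.8, 17.0 and 16.6 FPKM in SLCDS and 10.4, 11.0 and 7.39 FPKM in control (log2 difference 0.76 with an SE of 0.14, limma adjusted p = 0.0200). That call was kept in 15 of 24 other settings, among them the fit without control replicate 3 (limma, adjusted p = 1.91e-05). It ended when 1 SLCDS library was left out (limma, adjusted p = 0.112 to 0.123), with libraries scaled to the same FPKM sum (0.0604), and without control replicate 1 or 2 where no limit on low values was set (0.0765 and 0.0541). SLC38A3, the carrier through which astrocytes release glutamine, stood at 46.8, 44.9 and 44.5 FPKM in SLCDS and 81.9, 73.4 and 86.5 FPKM in control (log2 difference -0.81 with an SE of 0.08, limma adjusted p = 0.00188), and it was lower in all 24 other settings. The groups were well apart for both, and SLC38A1 reached 0.359, 0.379 and 0.372 of the SLC38A3 level in SLCDS against 0.127, 0.150 and 0.0854 in control.

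None of 24 tested enzymes of glutamate and glutamine use passed by limma or with voom on recovered fragments (5 higher and 2 lower at an unadjusted p under 0.05 in each), and their median log2 fold change was -0.024. GOT2, GAD1 and GPT2 are named after their values were seen. The enzyme genes with the highest mean over all 6 libraries were PSAT1, of serine synthesis (70.9 ± 2.80 and 58.3 ± 4.22 FPKM; limma, adjusted p = 0.0992), and ASNS, which makes asparagine from glutamine (50.3 ± 1.97 and 46.8 ± 4.69 FPKM; limma, adjusted p = 0.594), in SLCDS and control. GAD1, which makes GABA from glutamate, was at 9.26 ± 0.255 FPKM in SLCDS against 12.3 ± 1.55 FPKM in control (limma, adjusted p = 0.0834). Without control replicate 3, 6 of the 24 were higher and 4 lower by limma, PSAT1 and ASNS among the former and GAD1 and the alanine aminotransferase gene GPT2 among the latter. In that fit 27.8% of all genes were called, 16.1% higher and 11.7% lower. In control GPT2 (50.6 ± 3.40 FPKM) had a higher mean than ASNS.

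**Figure D4:**
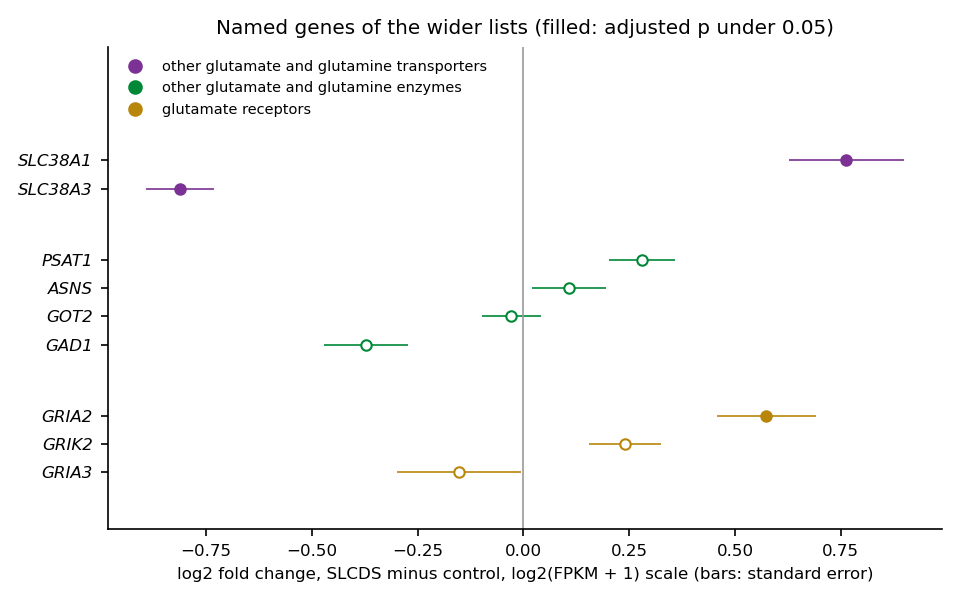
Log2 fold change (SLCDS minus control, log2(FPKM + 1) scale, bars: standard error) of genes from 3 wider lists. Drawn are SLC38A1 and SLC38A3 (other transporters), PSAT1, ASNS, GOT2 and GAD1 (other enzymes), and GRIA2, GRIK2 and GRIA3 (glutamate receptors). Other genes that the text names from these lists are not drawn. Filled points, with an adjusted p under 0.05 over all genes, are SLC38A1 and GRIA2 on the higher side and SLC38A3 on the lower side.

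Glutamate receptor genes were mostly at low levels, and 4 of 23 listed could be tested. Of these 1 was called by limma, beside 6.09% of all genes (4.28% higher and 1.82% lower). GRIA2, an AMPA receptor subunit, rose from 2.09 ± 0.434 to 3.57 ± 0.247 FPKM (log2 difference 0.57 with an SE of 0.12, limma adjusted p = 0.0325), and no tested receptor fell (0 lower at an unadjusted p under 0.05; with voom 0 of 13 fell, 1 lower at an unadjusted p under 0.05). That call was kept in 11 of 23 other settings (limma, adjusted p = 0.000508 to 0.203). With control replicate 3 left out GRIA2 was higher (limma, adjusted p = 0.00225), GRIA3 lower (0.0127) and GRIK2 not called (0.0561). The kainate receptor gene GRIK2 stood at 7.42 ± 0.213 and 6.14 ± 0.589 FPKM (limma, adjusted p = 0.186) and the AMPA receptor gene GRIA3 at 2.66 ± 0.175 and 3.12 ± 0.792 FPKM (limma, adjusted p = 0.657) in SLCDS and control. On recovered fragments 13 receptor genes could be fitted and 4 were higher, beside 6.95% of all genes called in that fit (5.14% higher, 1.81% lower). The 4 were GRIA2, GRIA4 (log2 fold change 1.45; limma with voom, adjusted p = 0.00579) and the NMDA receptor subunit genes GRIN2B (2.18; 0.00804) and GRIN2D (1.24; 0.0272), the last 3 named after their values were seen. GRIN2B had 70, 68 and 94 fragments in SLCDS and 27, 13 and 12 in control, at under 0.2 FPKM throughout.

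The profiles most like each gene's over the 6 libraries were sought among genes with a mean of at least 5 FPKM, by Pearson's r on log2(FPKM + 1). The libraries are shared, and 1 to 27 of 8392 genes reached an r above 0.99 with a given carrier or enzyme gene, so a high r is a description. PRPS2 (r = 0.9956) and PRAG1 (0.9944) were closest to SLC17A7, and KCNE4 (0.9984) and ECE1 (0.9972) to GLUL. For SLC1A5 they were GARS1 (0.9986) and PYGB (0.9977), for GOT1 ATF5 (0.996) and CHPF (0.9959), and for SLC1A1 NUSAP1 (0.9937) and UCK2 (0.993). SLC1A3 was closest to SOX9 (0.9913) and CRBN (0.9897), and GLUD1 to EMC2 (0.9995) and PSIP1 (0.9949).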

How the data were processed

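RNA of 6 libraries was measured by RNA sequencing after TRIzol extraction and VAHTS Universal V6 library preparation, per the labels' protocols. The authors deposited 1 file of linear FPKM values per library. How reads were aligned and counted is not given in the sources used here. Mouse builds (GRCm38, mm10) appear in the submitters' processing notes, but the files carry human symbols. The FPKM steps also imply gene lengths. Of 1123 genes with a single GENCODE 29 transcript, 52.8% had a length within 5% of their common ratio to that human transcript. Symbols and lengths point to human gene models, but lengths were not compared with mouse models.

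Groups came from the sample titles. Relative depth was read from genes with equal low fragment numbers, and for 15904 of 15906 genes above 0 in at least 2 libraries the 6 values were then whole multiples of a common step (within 0.003 of a whole number). The smallest such whole numbers are given as fragments; a factor common to all 6 libraries would not be seen. Replicates differed by more than counting error (median chi-square 1.03 to 16.0, where counting gives 0.455), so none were merged.

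FPKM was analysed as log2(FPKM + 1) for genes with at least 1 FPKM in 3 or more libraries, with limma 3.58.1 in R 4.3.3, eBayes with a mean-variance trend, and p-values (2-sided) adjusted by Benjamini-Hochberg across every gene tested; the threshold was an adjusted p of 0.05. The fit was tested on simulated data with independent normal noise, of the same spread in all 6 libraries for each gene. That test held no library like control replicate 3, so it cannot show how the fit behaves with one. The genes, lists and tests were chosen with earlier results of these data known. Named besides the 8 listed genes were up to 6 called genes of each wider list, or its 2 most abundant where fewer than 2 were called; exceptions are marked. Chosen after seeing the data were voom on genes with at least 10 fragments in 3 libraries, removal of each library's length trend (natural spline, 4 degrees of freedom) and leaving out libraries with no limit on low values. Promoters (7 of 8 genes matched) are from RefSeq, GRCh38.p14. The other steps used Python 3.11.15 with scipy 1.17.1, pandas 2.3.3, matplotlib 3.10.9 and numpy 2.4.6.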

Additional observations from a re-analysis of the deposited data

How the results depend on the processing

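None of the 8 listed glutamate genes, SLC38A1, SLC38A3, PSAT1, ASNS, GRIA2, GRIK2 and GRIA3 changed direction in any setting tried; GOT2, which was not called, changed sign without control replicate 3 (limma, log2 fold change 0.02). Over all genes 701 were called, with 324 at a mean of at least 5 FPKM, 3277 with sample weights, 1528 with the length trend removed, 196 to 3182 with 1 library left out and 305, 339, 368, 408, 376 and 2625 with 1 left out and no limit on low values. Of the 8 listed glutamate genes 7 were tested and 4 called, with 7 called under sample weights. With 1 library left out 0 to 7 were called (6 tested without an SLCDS library), and 2 to 8 of 8 with 1 left out and no limit. The share of all genes called was 6.09% in the main fit, 4.95% without a limit, 28.5% with sample weights, 6.95% with voom and 13.3% with the length trend removed. Without control replicate 3 it was 27.8%, or 15.7% with no limit. Of the wider lists 3 genes were called, with 5 without a limit, 7 after quantile normalization, 19 with sample weights, 6 with voom, 10 with the length trend removed and 1 to 17 with 1 library left out. In each of these leave-one-out ranges the highest count is that without control replicate 3, which in the weighted fit received a weight of 0.0652 against 1.49 to 2.10 for the others. Shared replicate numbers were not seen to pair the samples: deviations of same-numbered samples correlated at -0.3259, 0.3599 and 0.0652. Of 6 samples 2 correlated best with their own number. Deviations were taken from the group mean, which control replicate 3 pulls away from the other controls, so this check could miss a pairing. With the replicate number as a block 455 genes were called and 3 of the glutamate genes, SLC1A1 missing the threshold (limma, adjusted p = 0.115), as did GRIA2 (0.0727). SLC17A7 passed in the 20 other settings in which it was tested, GLUL in 23 of 24, SLC1A5 in 13, SLC1A1 in 12, GOT1 in 5, GLUD1 in 4 and SLC1A3 in 3 of 24. SLC17A7 was not tested at a mean of at least 5 FPKM, or with 1 SLCDS library left out under the limit on low values. Where that limit applied, SLC17A7 met it through the SLCDS libraries alone, so those settings are not separate support. With no limit it passed over all libraries and with any 1 left out (limma, adjusted p at most 0.0215). SLC1A2 passed in 4 of 7. Depth limits SLC17A7 and SLC1A2 most, at 19 to 161 fragments a library.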

Other observations

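Endothelial and immune cell markers were read beside the glutamate genes, and neither list moved one way. CDH5, a cadherin of endothelial junctions, was higher in SLCDS (4.81 ± 0.438 against 1.91 ± 0.634 FPKM, log2 difference 1.02, limma adjusted p = 0.0106; without control replicate 3, 8.32e-06), a call lost when any 1 SLCDS library was left out. PECAM1 overlapped between the groups at no more than 0.104 FPKM, and VWF was at 0.0404, 0.0410 and 0.0198 FPKM in SLCDS and 0.0765, 0.0418 and 0.0601 FPKM in control, so the endothelial sum (4.63 to 5.44 and 1.52 to 2.72 FPKM) is nearly all CDH5. Of the microglia and leukocyte markers CD68, a lysosomal protein gene, stood at 4.05 ± 0.641 FPKM in SLCDS against 2.79 ± 0.106 FPKM in control (limma adjusted p = 0.0737; without control replicate 3, 0.0172). PTPRC (at most 0.0276 FPKM in SLCDS and 0.0485 FPKM in control), CSF1R (0.211 and 0.275 FPKM on average) and AIF1 (0.0510 and 0.103 FPKM) had lower means in SLCDS. The part of any of these in the levels of the glutamate genes was not tested.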
